A study of Homo sapiens with 17 samples.

Results

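The genes described here are 35 genes of glycolysis and of the response to low oxygen, followed through knockouts of HOXA9, SAFB and MEIS1 in leukaemia cells. This membership was fixed by name, with earlier results of these data known. Of the 35, 26 carry glucose and lactate across the membrane, catalyse the steps of glycolysis or regulate them. The other 9 are regulators or targets of the hypoxia response. All 35 were found among the 58278 gene identifiers of the count files, and 34 had enough counts to be tested in every comparison. RNA came from MOLM13, an established line of human acute myeloid leukaemia. Its MLL-AF9 fusion gene is present in all groups, controls included. Cells with a CRISPR knockout of HOXA9 (HOXA9_KO, n = 3) or of SAFB (SAFB_KO, n = 3) were set against cells with a non-targeting guide (NT, n = 3). In a separate experiment, cells with a CRISPR knockout of MEIS1 (MEIS1_KO, n = 4) were set against their own non-targeting cells (NT_MEIS1ex, n = 4). HOXA9 and MEIS1 are homeobox transcription factors that sustain MLL-rearranged leukaemia, and SAFB is a nuclear matrix-associated protein that binds DNA and RNA. The labels do not say whether a knockout group was a pool of edited cells or a clone, how many guides were used, or at which oxygen level the cells grew.

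Glycolysis turns glucose into pyruvate. Glucose enters through SLC2A transporters and is trapped by hexokinases, and phosphofructokinase commits it to the pathway under the control of the PFKFB enzymes. Pyruvate kinase makes the last ATP of the pathway, lactate dehydrogenase turns pyruvate into lactate, and SLC16A transporters move lactate out. Pyruvate dehydrogenase kinases such as PDK1 hold pyruvate back from the mitochondria. When oxygen is low the EGLN prolyl hydroxylases stop marking HIF1A protein for destruction, and HIF1A with its partner ARNT raises many of these enzymes together with VEGFA, BNIP3, ANKRD37 and ADM. HIF1A is controlled mainly at the protein level, which RNA counts do not show. The isoenzymes differ in where they are used: HK1 is found in most tissues, HK2 is the form often raised in tumours, and HK3 is found mainly in myeloid cells.

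Levels are given as CPM, a gene's counts per M (mega) counts of its library, with TMM factors fitted within an experiment, so they are not set against each other between the 2 experiments. Changes are log2 fold changes of a knockout over its controls with their SE, from edgeR's quasi-likelihood test over all genes. A gene is called higher or lower at an adjusted p under 0.05. A second scaling, which divides by protein-coding nuclear counts only (called protein-coding scaling), lowers the median change of all genes by 0.25 for HOXA9_KO and by 0.14 for SAFB_KO on the log2 scale, and raises it by 0.03 for MEIS1_KO. It is named where it turns the direction or ends the call of a knockout's change that is given in the text.

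Reads assigned to genes numbered 23.3 to 67.8 M per library. In every library of its own knockout the targeted gene was lower than in every control library: HOXA9 lay at 21.1 to 21.9 CPM in HOXA9_KO and at 40.1 to 42.0 CPM in NT, SAFB at 19.4 to 22.2 CPM in SAFB_KO and at 33.6 to 40.9 CPM in NT, and MEIS1 at 10.3 to 12.8 CPM in MEIS1_KO and at 31.7 to 33.4 CPM in NT_MEIS1ex. MEIS1 was also lower in HOXA9_KO (16.1 to 17.7 CPM) and in SAFB_KO (37.7 to 41.0 CPM) than in NT (48.4 to 50.4 CPM), by 1.54 ± 0.06 and 0.31 ± 0.05 on the log2 scale (adjusted p 9.4e-29 and 3.2e-06). The summed level of 7 listed myeloid markers, most of it lysozyme, was 29535 to 32473 CPM in HOXA9_KO, 13451 to 15171 CPM in SAFB_KO and 5500 to 5626 CPM in NT. It was 7681 to 8036 CPM in MEIS1_KO and 4115 to 5755 CPM in NT_MEIS1ex. Not all of the 7 moved with the sum: FLT3, a receptor of early myeloid cells, fell by 1.07 ± 0.03 in HOXA9_KO and 0.30 ± 0.03 in SAFB_KO, and MPO rose by 2.48 ± 0.06 in HOXA9_KO but fell by 0.17 ± 0.06 in SAFB_KO (log2, adjusted p at most 0.026). Markers of erythroid, megakaryocytic, T, B and epithelial or stromal cells summed to at most 3.88 CPM in any library and any list. Mitochondrial rRNA took 33.9% ± 1.81 of the reads in HOXA9_KO, 25.7% ± 1.15 in SAFB_KO and 25.1% ± 3.02 in NT (SD, n = 3 each), but at most 0.0094% in a library of the MEIS1 experiment. The part of these differences in the changes below was not tested.

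Knockout of HOXA9 went with a broad shift among the members. HK3, PKM and HK1 rose most, and PFKFB3, GPI, SLC16A3, GAPDH, HK2 and other members of the pathway rose by less. ENO2, PDK1, ANKRD37 and VEGFA fell most. HIF targets moved both ways, since SLC16A3 is also induced by HIF. In HOXA9_KO 20 members were called higher and 10 lower of 34 tested, where 57.5% of all tested genes were called (27.6% higher and 29.9% lower). The median log2 change was 0.12 over the members and -0.07 over all tested genes. Of the 27 members with a mean of at least 20 CPM, 92.6% were called, beside 76.7% of all genes at that level, a level chosen after values were seen. With protein-coding scaling 10 members were higher and 18 lower, where 15.2% of all genes were higher and 49.2% lower. The 10 were HK1, HK2, HK3, GPI, PFKFB3, GAPDH, PGAM1, PKM, LDHB and SLC16A3.

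Knockout of SAFB moved fewer members. HK3, HK1 and PKM rose most, and VEGFA, ENO2, ANKRD37, PDK1 and SLC2A3 fell most. In SAFB_KO 12 members were called higher and 11 lower of 34, where 35.5% of all tested genes were called (20.2% higher and 15.3% lower), and the median log2 change was 0.07 over the members and -0.02 over all genes. With protein-coding scaling 4 members were higher, namely HK1, HK3, GPI and PKM, and 14 lower, where 9.07% of all genes were higher and 29.3% lower. HOXA9_KO and SAFB_KO share their NT libraries, so their changes are given side by side and are not independent of each other.

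Knockout of MEIS1 gave no called change in most members. In MEIS1_KO 2 members were called higher, HK3 and PKM, and 2 lower, VEGFA and SLC16A1, of 34 tested, a share close to the 8.81% of all tested genes that were called (4.97% higher and 3.84% lower). Protein-coding scaling gave 2 higher and 2 lower, where 6.22% of all genes were higher and 2.86% lower. The median log2 change was -0.03 over the members and 0.00 over all genes. The number called lower ran between 1 and 6 when a single library was left out, with 6 without NT_MEIS1ex replicate 1, 5 without NT_MEIS1ex replicate 2, and 1 without MEIS1_KO replicate 3 or NT_MEIS1ex replicate 3 or 4. The number called higher was 1 without MEIS1_KO replicate 2, 3 or 4 or NT_MEIS1ex replicate 3.

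**Figure D1:**
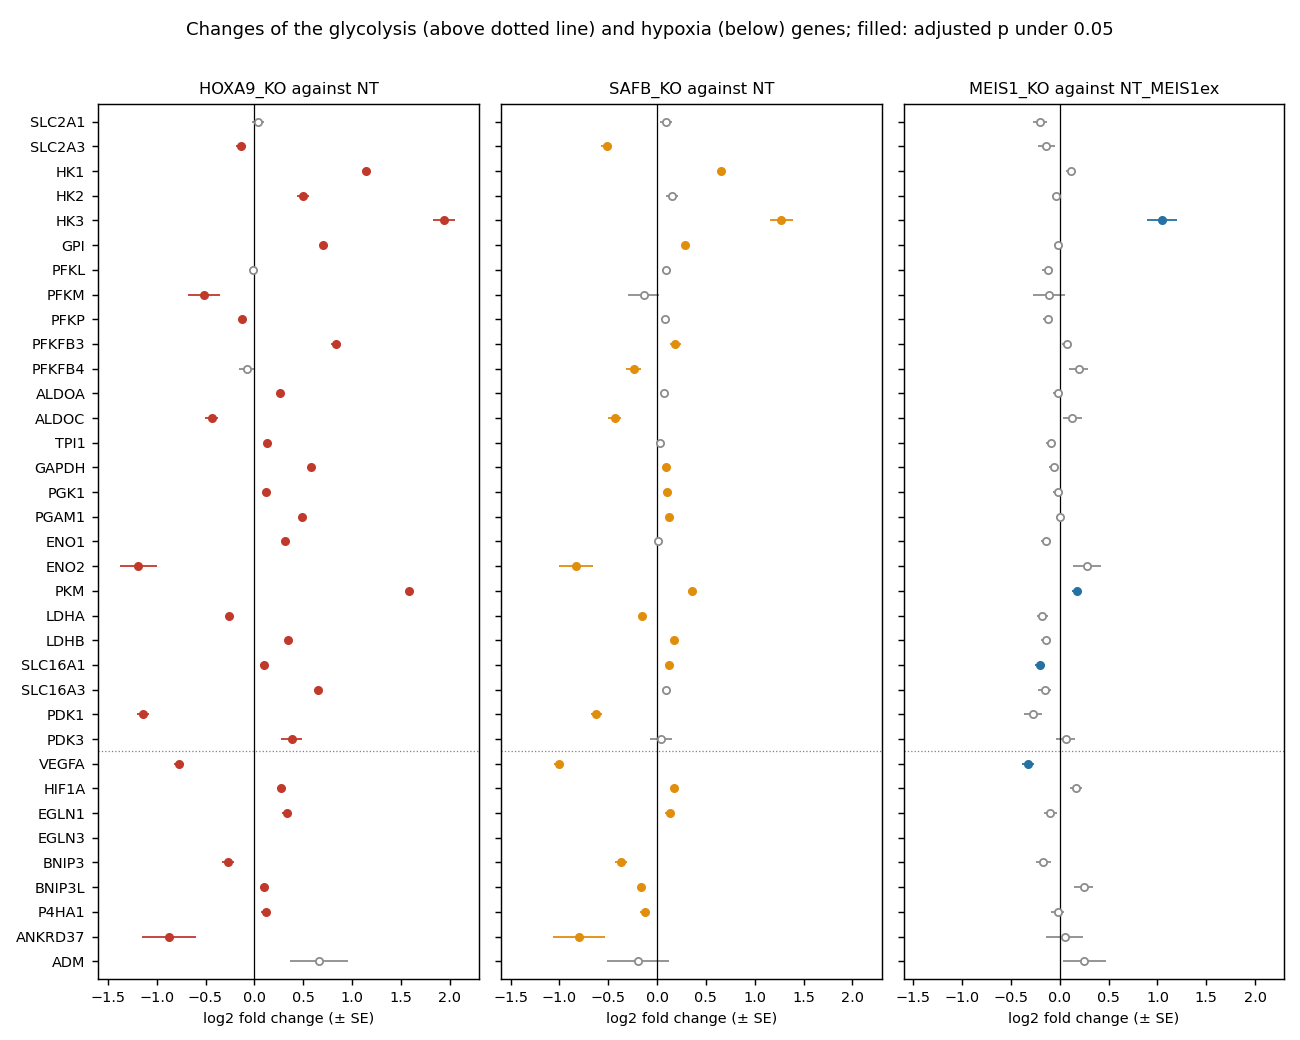
Log2 fold change ± SE (horizontal axis) of each member (rows; EGLN3 was not tested) in HOXA9_KO against NT, SAFB_KO against NT and MEIS1_KO against NT_MEIS1ex, with filled points for an adjusted p under 0.05. HK3 lies right of 0 in all 3 panels and VEGFA left of 0 in all 3, while most MEIS1_KO points are open and lie near 0.

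The plot of log2 changes shows the spread within a single step of the pathway: HK1, HK2 and HK3 lie at different distances to the right in HOXA9_KO, and ENO1 and ENO2 lie on opposite sides of 0. It also shows wide bars for ENO2, PFKM, ANKRD37 and ADM, which have few counts, and in MEIS1_KO for HK3, which has few counts there.

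Promoter windows of 5 members are printed here from the RefSeq promoter table (build GRCh38.p14), since these members moved apart in HOXA9_KO and SAFB_KO: PKM and HK3 rose, and ENO2, ANKRD37 and BNIP3 fell. The 5 have a single entry in the table. Each line runs 5′ to 3′ from 170 bases before the start of transcription to 30 bases after it. Capitals mark the core of the HIF site (ACGTG or GCGTG) and GAGGAA, a core of the PU.1 type. Each was searched on both strands with overlaps kept. Shorter GGAA stretches, which other ETS factors can bind, were neither searched nor marked. The windows are chr15:72231161-72231360 (minus strand) for PKM, chr5:176899317-176899516 (minus strand) for HK3, chr12:6914410-6914609 (plus strand) for ENO2, chr4:185396671-185396870 (plus strand) for ANKRD37 and chr10:131981894-131982093 (minus strand) for BNIP3.
PKM: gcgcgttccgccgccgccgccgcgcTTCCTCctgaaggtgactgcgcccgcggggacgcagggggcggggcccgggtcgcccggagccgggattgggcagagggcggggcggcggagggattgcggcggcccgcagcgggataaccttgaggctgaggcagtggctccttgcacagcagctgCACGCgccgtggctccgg
HK3: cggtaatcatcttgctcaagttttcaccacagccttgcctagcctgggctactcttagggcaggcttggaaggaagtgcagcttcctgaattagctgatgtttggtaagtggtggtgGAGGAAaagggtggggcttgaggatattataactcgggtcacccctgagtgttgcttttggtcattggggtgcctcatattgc
ENO2: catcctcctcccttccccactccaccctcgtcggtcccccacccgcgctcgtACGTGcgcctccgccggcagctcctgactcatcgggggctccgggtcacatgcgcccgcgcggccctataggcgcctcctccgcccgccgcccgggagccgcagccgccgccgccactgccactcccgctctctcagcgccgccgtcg
ANKRD37: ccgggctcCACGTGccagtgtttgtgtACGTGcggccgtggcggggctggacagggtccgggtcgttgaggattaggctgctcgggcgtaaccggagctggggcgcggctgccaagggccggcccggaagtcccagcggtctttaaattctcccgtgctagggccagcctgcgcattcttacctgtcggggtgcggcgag
BNIP3: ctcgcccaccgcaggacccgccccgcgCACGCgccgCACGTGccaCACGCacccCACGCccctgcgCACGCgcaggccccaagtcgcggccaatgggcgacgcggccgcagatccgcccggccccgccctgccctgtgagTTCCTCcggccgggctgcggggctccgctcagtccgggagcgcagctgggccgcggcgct
HK3 holds no HIF core in these letters and 1 GAGGAA, and PKM holds 1 of each. ENO2 holds 1 HIF core and no GAGGAA, ANKRD37 holds 3 HIF cores and no GAGGAA, and BNIP3 holds 6 HIF cores and 1 GAGGAA. Unmarked GGAA stretches, on either strand, stand in the PKM, HK3, ENO2 and ANKRD37 letters. A window without GAGGAA is thus not a window without an ETS site. In ANKRD37 and BNIP3 a palindromic CACGTG counts on both strands. A HIF core is common: 48.4% of all 35116 promoter windows of 300 bases hold it, beside 65.5% of the 58 windows of 31 members. GAGGAA is in 27.9% of all windows and 36.2% of the members' windows. The 5 printed windows were picked by direction of change and do not stand for all members. In their only window of 300 bases PGK1, GAPDH and ENO1, which rose in HOXA9_KO on the first scaling, hold 4, 2 and 2 HIF cores. ALDOC, which fell, holds 5. Whether the number of cores goes with direction was not tested. VEGFA, SLC16A1, SLC2A3 and BNIP3L had no entry. A match describes the letters only, and which factor binds there was not measured.

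The hexokinases carry out the step that traps glucose in the cell. On GRCh38, HK1 lies at chr10:69269984-69401884 (plus strand), HK2 at chr2:74833981-74893359 (plus) and HK3 at chr5:176880869-176899332 (minus), each a protein-coding gene in GENCODE 29. HK1 lay at 95.9, 94.7 and 97.6 CPM in HOXA9_KO and at 67.2, 69.5 and 68.0 CPM in SAFB_KO, against 42.4, 43.1 and 44.8 CPM in NT. HK2 lay at 81.6, 80.2 and 88.1 CPM in HOXA9_KO and at 68.6, 65.2 and 62.3 CPM in SAFB_KO, against 65.0, 53.0 and 58.4 CPM in NT. HK3 lay at 13.1, 10.7 and 12.1 CPM in HOXA9_KO and at 6.32, 7.84 and 8.32 CPM in SAFB_KO, against 2.96, 3.32 and 3.08 CPM in NT. All 3 hexokinases were above NT in every HOXA9_KO library, HK1 and HK3 were above NT in every SAFB_KO library, and HK2 in SAFB_KO overlapped NT. In HOXA9_KO the rise was 1.94 ± 0.11 for HK3 (adjusted p 9.8e-21), 1.15 ± 0.04 for HK1 (adjusted p 4.5e-29) and 0.50 ± 0.06 for HK2 (adjusted p 8.8e-07) on the log2 scale. In SAFB_KO it was 1.27 ± 0.12 for HK3 (adjusted p 5.4e-13) and 0.65 ± 0.04 for HK1 (adjusted p 2.3e-18), while HK2 differed by 0.15 ± 0.06 (adjusted p 0.066). HK2 passed in SAFB_KO without NT replicate 1 (log2 change 0.23, adjusted p 6.0e-05), HOXA9_KO replicate 3 (0.039) or SAFB_KO replicate 3 (0.0497), and the adjusted p for it ran between 6.0e-05 and 0.91 over the alternatives. Set directly against SAFB_KO, HOXA9_KO was higher for all 3, by 0.67 ± 0.11 for HK3, 0.49 ± 0.04 for HK1 and 0.35 ± 0.06 for HK2. Bulk RNA cannot tell fewer cells of a kind from less RNA per cell, here and for each result below. No label says that the libraries came from separate cultures, and the spread behind the p-values may therefore be technical.

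In the MEIS1 experiment HK3 was the hexokinase that was called. HK3 lay at 4.17, 4.47, 4.50 and 3.23 CPM in MEIS1_KO, against 2.11, 2.46, 1.83 and 1.62 CPM in NT_MEIS1ex. HK1 lay at 85.5, 85.6, 89.1 and 87.6 CPM in MEIS1_KO, against 80.2, 80.0, 78.2 and 82.8 CPM in NT_MEIS1ex. HK2 lay at 199, 208, 210.2 and 216 CPM in MEIS1_KO, against 206, 216, 217 and 217 CPM in NT_MEIS1ex. HK3 and HK1 were above NT_MEIS1ex in every MEIS1_KO library and HK2 overlapped. HK3 rose by 1.04 ± 0.15 (adjusted p 0.00032), on low counts of 75 to 127 per library in MEIS1_KO and 49 to 67 in NT_MEIS1ex. HK1 differed by 0.11 ± 0.05 (adjusted p 0.14; 95% interval 0.02 to 0.20) and HK2 by -0.04 ± 0.05 (adjusted p 0.65; interval -0.13 to 0.05). The effect of HOXA9_KO exceeded that of MEIS1_KO by 0.94 ± 0.19 for HK3, 1.08 ± 0.06 for HK1 and 0.58 ± 0.08 for HK2 on the log2 scale, each with an adjusted p of at most 0.00014. The effect of SAFB_KO exceeded that of MEIS1_KO by 0.55 ± 0.06 for HK1 (adjusted p 9.0e-08), while for HK3 the difference of 0.23 ± 0.20 did not pass (adjusted p 0.43; interval -0.15 to 0.62). Changes in different experiments also differ in their libraries and controls, which cannot be told apart from the gene knocked out.

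**Figure D2:**
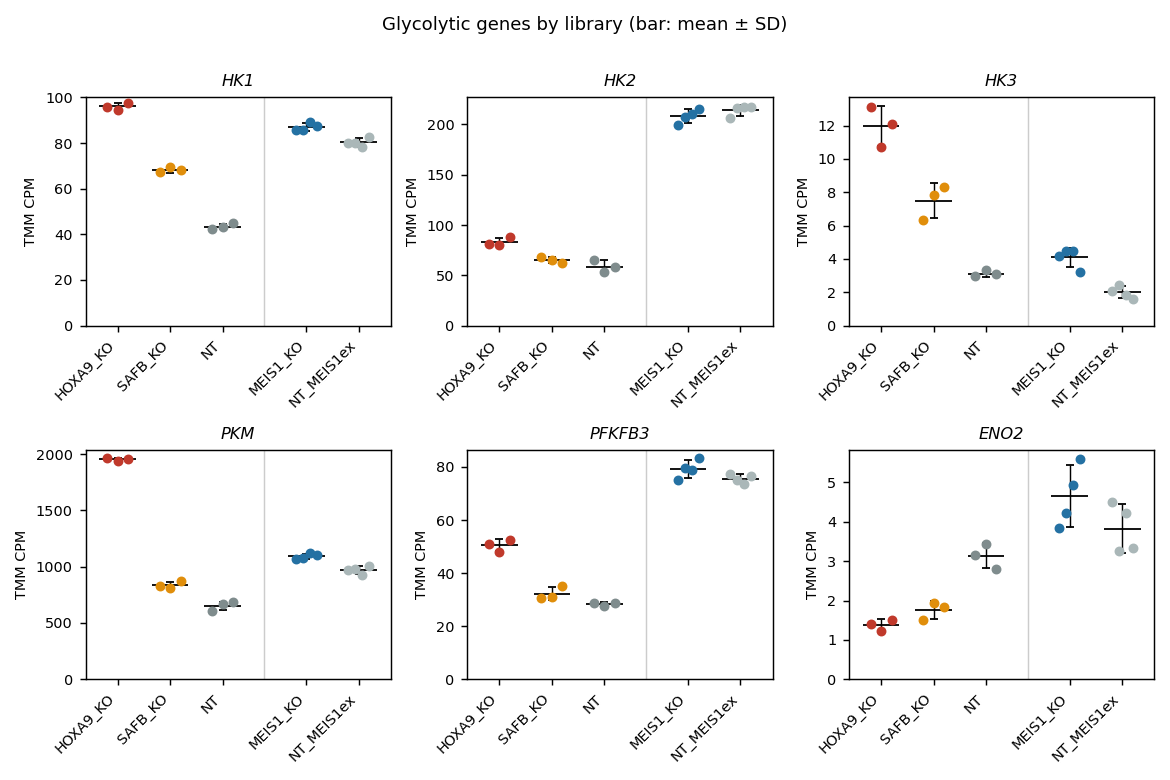
TMM-scaled CPM of HK1, HK2, HK3, PKM, PFKFB3 and ENO2 (vertical axes) by group; points are libraries, bars the mean ± SD, and the grey line parts the 2 experiments. PKM lies at 1942 to 1965 CPM in the 3 HOXA9_KO libraries, at 814 to 870.2 CPM in SAFB_KO and at 609.9 to 682 CPM in NT.

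Counted per kb of exon, which allows isoenzymes to be set against each other, the mix of hexokinases differed. HK2 made up 42.1% ± 0.967 of the hexokinase counts in HOXA9_KO and 45.1% ± 1.997 in SAFB_KO, against 55.2% ± 2.94 in NT (SD, n = 3 each). HK1 made up 46.8% ± 0.881 in HOXA9_KO and 45.4% ± 0.637 in SAFB_KO, against 39.4% ± 2.40 in NT. HK3 made up 11.1% ± 0.938 in HOXA9_KO and 9.53% ± 1.37 in SAFB_KO, against 5.43% ± 0.595 in NT. By merged exon length, HK2 had the highest share in each NT library and HK1 in each HOXA9_KO library. The order of HK1 and HK2 in NT depends on the length used. Merged exons span 6296 bases in HK1 and 6064 in HK2, while their longest transcripts span 3998 and 5772 bases. In the MEIS1 experiment HK2 kept the highest share, 69.5% ± 0.722 in MEIS1_KO and 72.5% ± 0.680 in NT_MEIS1ex, while HK3 made up 2.52% ± 0.387 in MEIS1_KO and 1.25% ± 0.232 in NT_MEIS1ex (SD, n = 4 each). The groups did not overlap in any of these comparisons. The 2-sided exact permutation test cannot go below p = 0.1 with 3 against 3 libraries, the value found for each of these shares in HOXA9_KO and SAFB_KO. With 4 against 4 libraries it gave 0.0286, the smallest it can give (0.107 adjusted over 15 shares), so no share passed. Shares need no scaling between libraries and do not depend on it.

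**Figure D3:**
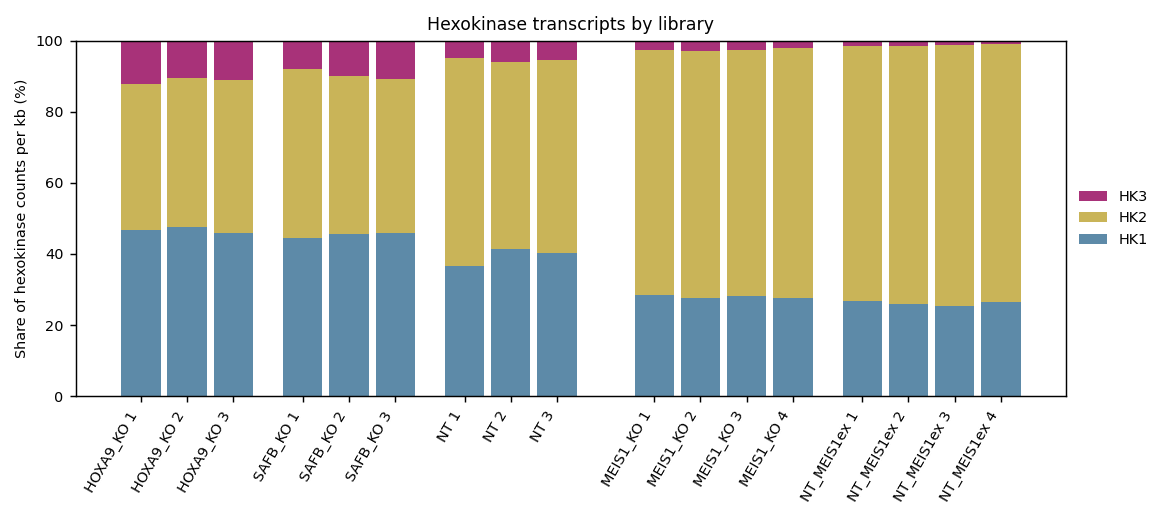
Share of HK1, HK2 and HK3 in the hexokinase counts per kb of exon (vertical axis, percent) in each library, ordered by group. HK2, the middle segment, averages 42.1% in HOXA9_KO, 45.1% in SAFB_KO and 55.2% in NT, and HK3, the top segment, 2.52% in MEIS1_KO and 1.25% in NT_MEIS1ex.

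At the end of the pathway, PKM (chr15:72199029-72231822, minus strand), which makes pyruvate and ATP, lay at 1965, 1942 and 1957 CPM in HOXA9_KO and at 829.8, 814 and 870.2 CPM in SAFB_KO, against 609.9, 666 and 682 CPM in NT. In the MEIS1 experiment it lay at 1071, 1076, 1123 and 1101 CPM in MEIS1_KO, against 969.7, 982, 922 and 1005 CPM in NT_MEIS1ex. Every knockout library was above its controls. The effect of SAFB_KO on PKM was 0.36 ± 0.03 on the log2 scale (adjusted p 1.5e-12). HOXA9_KO lay 1.22 ± 0.03 above SAFB_KO (adjusted p 2.9e-31), and its fitted level was 2.996 times that of NT. In MEIS1_KO the rise was 0.17 ± 0.04 (adjusted p 0.020), and the adjusted p ran between 0.0032 and 0.099 over the alternatives. That call was lost without MEIS1_KO replicate 2 (adjusted p 0.057), replicate 3 (0.099) or replicate 4 (0.052), or without NT_MEIS1ex replicate 3 (0.086). The HOXA9_KO effect on PKM exceeded the MEIS1_KO effect by 1.45 ± 0.06 (adjusted p 9.3e-20). PKM has 2 well-known splice forms, PKM1 and PKM2, which gene counts do not separate, and 5 pseudogene copies in GENCODE 29.

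PKM and GAPDH weighed on the pathway total. The summed level of the glycolytic enzymes was 11335 ± 157 CPM in HOXA9_KO, 8482 ± 141 CPM in SAFB_KO and 7932 ± 239 CPM in NT (SD, n = 3 each). PKM made up 17.2% ± 0.172 of that sum in HOXA9_KO, 9.88% ± 0.181 in SAFB_KO and 8.22% ± 0.233 in NT. GAPDH, the largest part, made up 31.4% to 31.8% in the HOXA9_KO libraries, 30.1% to 30.4% in SAFB_KO and 30.2% to 30.6% in NT. As a share of nuclear protein-coding counts the sum was 1.53% ± 0.0141 in HOXA9_KO, 1.24% ± 0.0127 in SAFB_KO and 1.28% ± 0.0372 in NT. HOXA9_KO thus lay above NT on both scales, while SAFB_KO lay above NT on the first scale and its mean below NT on the second. In the MEIS1 experiment the sum was 12845 ± 279 CPM in MEIS1_KO and 13387 ± 521 CPM in NT_MEIS1ex (SD, n = 4 each).

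The regulator PFKFB3, which makes the activator of phosphofructokinase, was a further large rise in HOXA9_KO. It lay at 51.0, 48.1 and 52.3 CPM in HOXA9_KO and at 30.5, 31.0 and 34.95 CPM in SAFB_KO, against 28.7, 27.4 and 28.7 CPM in NT. All knockout libraries were above NT, by 0.84 ± 0.05 in HOXA9_KO (adjusted p 8.0e-19) and by 0.19 ± 0.06 in SAFB_KO (adjusted p 0.0070). The SAFB_KO call was lost with protein-coding scaling (0.05, adjusted p 0.53) and without SAFB_KO replicate 3 (0.12, adjusted p 0.14), with adjusted p between 0.0037 and 0.53 over the alternatives. In the MEIS1 experiment PFKFB3 lay at 75.0, 79.6, 79.0 and 83.5 CPM in MEIS1_KO and at 77.4, 75.0, 73.4 and 76.4 CPM in NT_MEIS1ex, which overlapped. Its relative PFKFB4 stood at 15.3 ± 1.63 CPM in HOXA9_KO and 16.2 ± 0.490 CPM in NT. That difference was not called, but was called lower with protein-coding scaling (-0.33, adjusted p 0.00022). In SAFB_KO PFKFB4 fell by 0.24 ± 0.08 (adjusted p 0.012), with adjusted p between 9.2e-05 and 0.097 over the alternatives. Of the phosphofructokinase genes themselves, PFKP fell by 0.12 ± 0.04 and the low-count PFKM by 0.51 ± 0.17 in HOXA9_KO. PFKL was not called there, but was called lower with protein-coding scaling (-0.26, adjusted p 8.0e-06). The PFKM call was lost without NT replicate 2 (-0.39, adjusted p 0.074).

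Steps in the middle of the pathway rose in HOXA9_KO by smaller amounts than PKM, HK3 and HK1. GPI, which follows hexokinase, stood at 279.7 ± 7.31 CPM in HOXA9_KO and 209.8 ± 8.91 CPM in SAFB_KO, against 172 ± 1.21 CPM in NT, with log2 changes of 0.70 ± 0.03 and 0.29 ± 0.03 in HOXA9_KO and SAFB_KO. GAPDH, at 3593 ± 50.4 CPM in HOXA9_KO and 2410.3 ± 72.8 CPM in NT, rose by 0.58 ± 0.03, and PGAM1, at 252 ± 7.81 CPM in HOXA9_KO and 179.6 ± 2.01 CPM in NT, by 0.49 ± 0.03. In SAFB_KO GAPDH and PGAM1 were 0.09 ± 0.03 and 0.12 ± 0.03 higher, and both turned to -0.05 and -0.02, not called, with protein-coding scaling. The GAPDH call in SAFB_KO was also lost without NT replicate 1 (adjusted p 0.084) or SAFB_KO replicate 3 (adjusted p 0.067). ENO1 and ALDOA rose by 0.31 ± 0.03 and 0.27 ± 0.03 in HOXA9_KO, and neither was called with protein-coding scaling. TPI1 and PGK1 rose by 0.13 ± 0.03 and 0.12 ± 0.03 in HOXA9_KO and turned to -0.13 each with protein-coding scaling. GAPDH has 62 pseudogene copies and PGAM1 has 13, and 42.3% of ALDOA's exon length overlaps another gene on the same strand, so reads in these genes may be shared.

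Some minor isoforms went the other way. ENO2, the neuronal enolase, lay at 1.39, 1.21 and 1.51 CPM in HOXA9_KO and at 1.49, 1.93 and 1.84 CPM in SAFB_KO, against 3.16, 3.43 and 2.802 CPM in NT. ALDOC, the brain form of aldolase, lay at 24.0, 19.9 and 21.97 CPM in HOXA9_KO and at 21.6, 20.2 and 24.2 CPM in SAFB_KO, against 28.0, 29.98 and 31.2 CPM in NT. All knockout libraries were below NT for both genes. ENO2 fell by 1.19 ± 0.19 in HOXA9_KO (adjusted p 3.2e-07) and by 0.83 ± 0.18 in SAFB_KO (adjusted p 0.00016). ALDOC fell by 0.44 ± 0.07 in HOXA9_KO (adjusted p 2.8e-07) and by 0.43 ± 0.07 in SAFB_KO (adjusted p 6.7e-07). ENO2 lay at 3.84, 4.22, 4.95 and 5.60 CPM in MEIS1_KO, against 4.50, 3.26, 4.21 and 3.33 CPM in NT_MEIS1ex. ALDOC lay at 20.8, 20.9, 26.3 and 27.0 CPM in MEIS1_KO, against 19.1, 21.8, 24.4 and 21.5 CPM in NT_MEIS1ex. For both genes these groups overlapped and the change was not called. The HOXA9_KO effect lay 1.42 ± 0.23 below the MEIS1_KO effect for ENO2 (adjusted p 2.8e-06) and 0.52 ± 0.13 below it for ALDOC (adjusted p 0.0012).

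Of the glucose transporters among the members, SLC2A3 fell and SLC2A1 was not called. SLC2A3, a glucose transporter with high affinity, lay at 39.6, 40.1 and 42.8 CPM in HOXA9_KO and at 32.3, 31.6 and 30.3 CPM in SAFB_KO, against 43.6, 47.6 and 43.7 CPM in NT. It lay at 59.8, 55.3, 64.5 and 62.5 CPM in MEIS1_KO, against 54.0, 65.5, 75.2 and 71.6 CPM in NT_MEIS1ex. Every HOXA9_KO and SAFB_KO library was below NT, SAFB_KO the furthest, and MEIS1_KO overlapped its controls. The fall was 0.52 ± 0.05 in SAFB_KO (adjusted p 1.3e-11) and 0.14 ± 0.05 in HOXA9_KO (adjusted p 0.021). The HOXA9_KO call was lost without NT replicate 2 (adjusted p 0.17), HOXA9_KO replicate 1 (0.11) or HOXA9_KO replicate 2 (0.095), with adjusted p between 1.2e-08 and 0.17 over the alternatives. In MEIS1_KO the change was -0.14 ± 0.09 (adjusted p 0.38), and it was called lower without NT_MEIS1ex replicate 1 (-0.23, adjusted p 0.018). SLC2A3 may share reads with its near-identical neighbour SLC2A14. SLC2A1, the common glucose transporter, stood at 27.3 ± 0.327 CPM in HOXA9_KO, 28.3 ± 1.38 CPM in SAFB_KO and 26.7 ± 2.38 CPM in NT, and was called in neither. Its HOXA9_KO change of 0.04 ± 0.06 turned to -0.21 (adjusted p 0.0026) with protein-coding scaling.

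LDHA and LDHB transcripts moved in opposite directions in HOXA9_KO and SAFB_KO. LDHA, the form that favours lactate and a classic HIF target, stood at 354 ± 10.7 CPM in HOXA9_KO and 382 ± 14.9 CPM in SAFB_KO, against 424 ± 9.59 CPM in NT. LDHB stood at 649.6 ± 18.1 CPM in HOXA9_KO and 577 ± 3.64 CPM in SAFB_KO, against 510.3 ± 17.9 CPM in NT. LDHA fell by 0.26 ± 0.03 in HOXA9_KO and 0.15 ± 0.03 in SAFB_KO, and LDHB rose by 0.35 ± 0.03 and 0.18 ± 0.03, the last not called with protein-coding scaling. Per kb, LDHA made up 20.7% ± 0.641 of both in HOXA9_KO and 24.1% ± 0.655 in SAFB_KO, against 28.5% ± 1.19 in NT (SD, n = 3 each), with exact p = 0.1 in both, the smallest possible. LDHB's exons overlap another gene on the same strand over 33.4% of their length. SLC16A3, a lactate exporter also induced by HIF, stood at 129.8 ± 5.18 CPM in HOXA9_KO and 83.0 ± 5.19 CPM in NT, a rise of 0.65 ± 0.04 (adjusted p 2.9e-19). In SAFB_KO SLC16A3 stood at 88.6 ± 1.79 CPM, overlapped NT and was not called (0.10 ± 0.04, adjusted p 0.063, between 0.020 and 0.43 over the alternatives). That change turned to -0.04 with protein-coding scaling. In MEIS1_KO its change of -0.16 ± 0.07 was not called (adjusted p 0.18, between 0.045 and 0.45 over the alternatives).

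SLC16A1, which moves lactate in both directions, was the transporter called lower in MEIS1_KO. It lay at 144, 146, 133 and 140.5 CPM in MEIS1_KO, against 153, 163, 165 and 168 CPM in NT_MEIS1ex. It lay at 108, 94.9 and 105 CPM in HOXA9_KO and at 108, 104 and 101 CPM in SAFB_KO, against 96.4, 97.9 and 92.8 CPM in NT. MEIS1_KO was below its controls in every library, SAFB_KO was above NT, and HOXA9_KO overlapped NT. The fall in MEIS1_KO was 0.20 ± 0.05 (adjusted p 0.014), lost without MEIS1_KO replicate 3 (adjusted p 0.080), NT_MEIS1ex replicate 3 (0.051) or NT_MEIS1ex replicate 4 (0.055), with adjusted p between 0.0017 and 0.080 over the alternatives. The rises of 0.10 ± 0.04 in HOXA9_KO and 0.13 ± 0.04 in SAFB_KO turned to -0.15 and -0.01 with protein-coding scaling. They were also lost without NT replicate 3 (adjusted p 0.099), HOXA9_KO replicate 1 (0.20) or HOXA9_KO replicate 3 (0.12) in HOXA9_KO, and without SAFB_KO replicate 1 (0.069) in SAFB_KO.

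Among the pyruvate dehydrogenase kinases, the switch that keeps pyruvate from the mitochondria, PDK1 fell in HOXA9_KO and SAFB_KO. PDK1 (chr2:172555373-172608669, plus strand) lay at 18.6, 19.6 and 23.1 CPM in HOXA9_KO and at 30.4, 29.4 and 28.2 CPM in SAFB_KO, against 44.96, 46.5 and 43.9 CPM in NT. It lay at 36.9, 38.0, 40.7 and 36.7 CPM in MEIS1_KO, against 36.4, 46.5, 53.9 and 47.8 CPM in NT_MEIS1ex. HOXA9_KO and SAFB_KO lay below NT in every library, and MEIS1_KO overlapped the lowest control library. PDK1 fell by 1.14 ± 0.06 in HOXA9_KO (adjusted p 6.2e-22) and by 0.62 ± 0.06 in SAFB_KO (adjusted p 1.5e-12), and HOXA9_KO was 0.51 ± 0.06 below SAFB_KO (adjusted p 2.6e-09). In MEIS1_KO the change of -0.28 ± 0.09 did not pass (adjusted p 0.080), but passed without NT_MEIS1ex replicate 1 (-0.38, adjusted p 0.0004), with adjusted p between 0.0004 and 0.20 over the alternatives. PDK3 stood at 7.56 ± 0.267 CPM in HOXA9_KO and 5.82 ± 0.288 CPM in NT, a rise of 0.38 ± 0.11 that was not called with protein-coding scaling. Per kb, PDK1 made up 47.3% ± 2.33 of PDK1 and PDK3 in HOXA9_KO and 62.2% ± 2.68 in SAFB_KO, against 72.0% ± 1.53 in NT (SD, n = 3 each), with exact p = 0.1 in both, the smallest possible. These shares leave out the other 2 kinases of the family, which are no members and are named here after their values were seen. PDK4 stood at 2.199 ± 0.450 CPM in HOXA9_KO and 0.202 ± 0.0972 CPM in SAFB_KO, against 0.133 ± 0.0153 CPM in NT, a rise of 4.001 ± 0.36 in HOXA9_KO (adjusted p 6.9e-14) that was not called in SAFB_KO (adjusted p 0.38). PDK2 stood at 8.42 ± 0.817 CPM in HOXA9_KO and 8.43 ± 0.844 CPM in SAFB_KO, against 7.97 ± 1.09 CPM in NT, and was called in neither.

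Of 8 hypoxia genes tested, 4 were higher and 3 lower in HOXA9_KO, where 27.6% of all genes were higher and 29.9% lower. In SAFB_KO 2 were higher and 5 lower, where 20.2% of all genes were higher and 15.3% lower. With protein-coding scaling 5 were lower and none higher in each, where 49.2% of all genes were lower in HOXA9_KO and 29.3% in SAFB_KO. With 8 genes, a count of 5 does not set them apart from all genes in HOXA9_KO. HIF1A, the oxygen-regulated transcription factor, lay at 96.1, 96.3 and 97.3 CPM in HOXA9_KO and at 94.1, 87.5 and 87.8 CPM in SAFB_KO, against 82.5, 78.0 and 78.7 CPM in NT. VEGFA (chr6:43770184-43786487, plus strand), the growth factor for blood vessels, lay at 46.4, 47.8 and 48.6 CPM in HOXA9_KO and at 39.7, 40.7 and 40.8 CPM in SAFB_KO, against 82.2, 87.0 and 74.2 CPM in NT. ANKRD37, a small HIF target, lay at 0.762, 0.747 and 0.784 CPM in HOXA9_KO and at 0.404, 0.943 and 1.02 CPM in SAFB_KO, against 1.24, 1.34 and 1.65 CPM in NT. HIF1A was above NT in every knockout library, and VEGFA and ANKRD37 were below it in every one. HIF1A rose by 0.28 ± 0.04 in HOXA9_KO (adjusted p 3.2e-08) and by 0.17 ± 0.04 in SAFB_KO (adjusted p 0.00045), and with protein-coding scaling by 0.02 and 0.03, neither called (adjusted p 0.60 and 0.56, the highest over the alternatives). VEGFA fell by 0.77 ± 0.05 in HOXA9_KO (adjusted p 1.7e-19) and by 1.01 ± 0.05 in SAFB_KO (adjusted p 4.3e-23), and HOXA9_KO lay 0.24 ± 0.05 above SAFB_KO (adjusted p 0.00012). ANKRD37 fell by 0.87 ± 0.28 in HOXA9_KO (adjusted p 0.0062) and by 0.80 ± 0.27 in SAFB_KO (adjusted p 0.016). The SAFB_KO call for ANKRD37 was lost without SAFB_KO replicate 1 (-0.51, adjusted p 0.16) or NT replicate 3 (-0.68, adjusted p 0.079), and 35.2% of its exon length overlaps UFSP2 on the other strand.

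**Figure D4:**
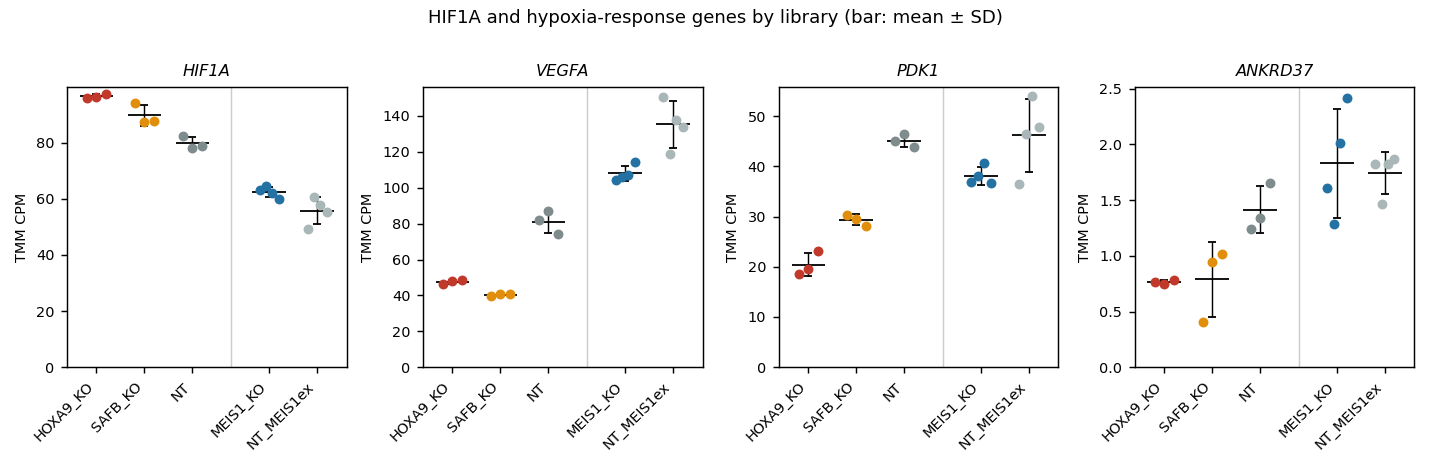
TMM-scaled CPM of HIF1A, VEGFA, PDK1 and ANKRD37 (vertical axes) by group; points are libraries, bars the mean ± SD, and the grey line parts the 2 experiments. VEGFA lies at 46.4 to 48.6 CPM in HOXA9_KO, 39.7 to 40.8 CPM in SAFB_KO and 74.2 to 87.0 CPM in NT, and at 105 to 114 CPM in MEIS1_KO and 119 to 150.4 CPM in NT_MEIS1ex.

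In the MEIS1 experiment VEGFA lay at 105, 106, 107 and 114 CPM in MEIS1_KO, against 150.4, 119, 138 and 134 CPM in NT_MEIS1ex. HIF1A lay at 63.0, 64.5, 62.0 and 60.03 CPM in MEIS1_KO, against 49.3, 60.7, 57.9 and 55.2 CPM in NT_MEIS1ex. ANKRD37 lay at 1.61, 1.29, 2.01 and 2.41 CPM in MEIS1_KO, against 1.82, 1.47, 1.83 and 1.87 CPM in NT_MEIS1ex. VEGFA was below its controls in every MEIS1_KO library, and HIF1A and ANKRD37 overlapped theirs. VEGFA fell by 0.32 ± 0.06 (adjusted p 0.0027). HIF1A differed by 0.16 ± 0.06 (adjusted p 0.11) and passed without NT_MEIS1ex replicate 2 (0.20, adjusted p 0.043), with adjusted p between 0.043 and 0.26 over the alternatives. The VEGFA effect was larger in HOXA9_KO than in MEIS1_KO by 0.40 ± 0.09 downward (log2 difference -0.40, adjusted p 0.00033) and in SAFB_KO by 0.67 ± 0.09 (log2 difference -0.67, adjusted p 1.3e-06).

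The remaining hypoxia genes had changes of mixed direction. BNIP3, a mitophagy receptor and HIF target with 39 pseudogene copies, stood at 20.9 ± 0.868 CPM in HOXA9_KO and 19.6 ± 0.967 CPM in SAFB_KO, against 25.3 ± 0.472 CPM in NT, falls of 0.27 ± 0.06 and 0.37 ± 0.06. Its relative BNIP3L stood at 115 ± 4.04 CPM in HOXA9_KO and 96.8 ± 3.598 CPM in SAFB_KO, against 108 ± 2.35 CPM in NT. BNIP3L fell by 0.16 ± 0.04 in SAFB_KO, while its rise of 0.09 ± 0.04 in HOXA9_KO turned to -0.16 with protein-coding scaling. P4HA1, a collagen prolyl hydroxylase, behaved likewise, falling by 0.13 ± 0.05 in SAFB_KO and rising by 0.11 ± 0.05 in HOXA9_KO, a value that turned to -0.14 with protein-coding scaling. These 3 calls were near the threshold (adjusted p 0.029 for BNIP3L and 0.038 for P4HA1 in HOXA9_KO, and 0.033 for P4HA1 in SAFB_KO). The BNIP3L call was lost without NT replicate 2 (0.11), HOXA9_KO replicate 1 (0.097) or HOXA9_KO replicate 3 (0.098). The P4HA1 call in HOXA9_KO was lost without NT replicate 1 (0.096), NT replicate 3 (0.068), HOXA9_KO replicate 1 (0.17) or HOXA9_KO replicate 3 (0.076). The P4HA1 call in SAFB_KO was lost without NT replicate 2 (0.14), NT replicate 3 (0.053), SAFB_KO replicate 1 (0.13) or SAFB_KO replicate 3 (0.16). Over the alternatives the adjusted p reached 0.35 for BNIP3L and 0.28 for P4HA1 in HOXA9_KO, and 0.16 for P4HA1 in SAFB_KO. EGLN1, the main oxygen sensor, rose by 0.33 ± 0.05 in HOXA9_KO and 0.13 ± 0.05 in SAFB_KO, with protein-coding scaling 0.08 and -0.01, neither called. The SAFB_KO call was also lost without NT replicate 1 (adjusted p 0.14) or SAFB_KO replicate 3 (adjusted p 0.27). ADM, a vasodilator peptide, stood at 1.06 ± 0.221 CPM in HOXA9_KO, 0.573 ± 0.110 CPM in SAFB_KO and 0.653 ± 0.186 CPM in NT, and was called in neither, though HOXA9_KO passed without NT replicate 1 (adjusted p 0.024) or HOXA9_KO replicate 3 (adjusted p 0.031). EGLN3, a sensor that HIF itself induces, had at most 9 counts in any library and was not tested.

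Set directly against each other, HOXA9_KO exceeded SAFB_KO for most members. In HOXA9_KO 21 members were higher than in SAFB_KO and 3 lower, where 40.6% of all tested genes were called (20.1% higher and 20.5% lower), and the median log2 difference was 0.20 over the members and -0.02 over all genes. With protein-coding scaling 15 were higher and 8 lower, where 13% of all genes were higher and 31% lower. PKM (1.22), ADM (0.86), HK3 (0.67), PFKFB3 (0.65) and SLC16A3 (0.55) had the largest upward log2 differences among those called, and PDK1, PFKP and LDHA were the 3 lower ones. The call for the low-count ADM (adjusted p 0.028) was lost with protein-coding scaling (0.056) and with no filter (0.054). It was also lost without HOXA9_KO replicate 1 (0.10) or replicate 2 (0.082), or without SAFB_KO replicate 1 (0.098) or replicate 3 (0.056). PGK1, not called here (0.02 ± 0.03), turned to -0.09, called lower, with protein-coding scaling (adjusted p 0.0072). Against the MEIS1_KO effect, the HOXA9_KO effect was higher for 18 members and lower for 5, where 44.2% of all genes were called (24.5% higher and 19.7% lower). With protein-coding scaling it was higher for 11 and lower for 13, where 9.91% of all genes were higher and 41.3% lower. PGK1 was called higher by 0.19 (adjusted p 0.014) on the first scaling and lower on the second (-0.14, adjusted p 0.035), and under the stricter filter on levels (2 CPM on average) its difference of 0.09 was not called (adjusted p 0.18). Against the MEIS1_KO effect, the SAFB_KO effect was higher for 10 members and lower for 7, where 20.9% of all genes were called (12.4% higher and 8.49% lower). With protein-coding scaling it was higher for 2 and lower for 10, where 3.25% of all genes were higher and 18.6% lower. The 10 became 6 without NT replicate 1 or MEIS1_KO replicate 1. Over both scalings the SAFB_KO effect exceeded the MEIS1_KO effect for HK1 and LDHB.

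**Figure D5:**
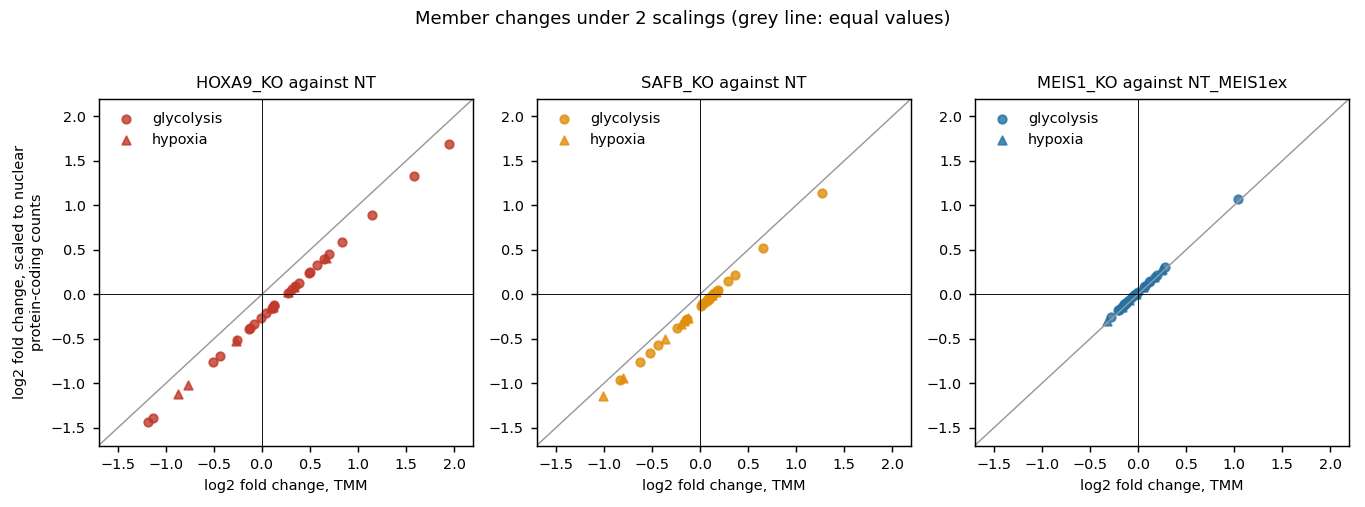
Log2 fold change of each tested member with TMM scaling (horizontal axis) and with scaling to nuclear protein-coding counts (vertical axis) in the 3 knockout comparisons; circles are glycolysis genes, triangles hypoxia genes, and the grey line marks equal values. All points lie below the line in HOXA9_KO and SAFB_KO, and PKM keeps a change of 1.33 in HOXA9_KO on the vertical scale.

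The plot of both scalings shows a near-constant offset, so the count on each side of 0 depends on the scaling while the spacing of the members does so far less.

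Further genes of the pathways, from lists chosen by name, were counted in the same fits. Of 26 tested genes of glucose and pyruvate metabolism outside the membership, 10 were higher and 5 lower in HOXA9_KO, a share close to the 57.5% of all genes called there (27.6% higher and 29.9% lower). In SAFB_KO 9 were higher and 2 lower, where 20.2% of all genes were higher and 15.3% lower, and in MEIS1_KO 2 and 1 of 23, where 4.97% were higher and 3.84% lower. With protein-coding scaling 6 were higher and 11 lower in HOXA9_KO (15.2% and 49.2% of all genes), and 6 and 7 in SAFB_KO (9.07% and 29.3% of all genes). FBP1, an enzyme of gluconeogenesis, stood at 8.34 ± 0.170 CPM in HOXA9_KO and 2.18 ± 0.465 CPM in SAFB_KO, against 0.778 ± 0.166 CPM in NT, and rose by 3.39 ± 0.17 and 1.43 ± 0.19. The transporter SLC2A6 rose by 1.67 ± 0.08 in HOXA9_KO, 0.57 ± 0.08 in SAFB_KO and 0.52 ± 0.06 in MEIS1_KO. TIGAR, which lowers the activator that PFKFB3 makes, rose by 0.996 ± 0.06 in HOXA9_KO and 0.62 ± 0.06 in SAFB_KO, and BSG, the chaperone of lactate transporters, by 0.53 ± 0.03 and 0.28 ± 0.03. In the pentose phosphate pathway, which branches off after hexokinase, PGD, a dehydrogenase of the pathway, rose by 0.80 ± 0.03 in HOXA9_KO and 0.22 ± 0.03 in SAFB_KO. TKT and TALDO1, which return its sugars to glycolysis, rose by 0.65 ± 0.03 and 0.56 ± 0.03 in HOXA9_KO. In SAFB_KO they rose by 0.18 ± 0.03 and 0.19 ± 0.03, and neither was called there with protein-coding scaling. In MEIS1_KO none of these 3 genes was called, with log2 changes of -0.02 ± 0.05 for PGD, -0.04 ± 0.05 for TKT and -0.01 ± 0.04 for TALDO1. Not every gene of the pentose phosphate pathway rose. RPE, named here after its values were seen, fell by 0.44 ± 0.05 in HOXA9_KO (adjusted p 2.1e-11) and by 0.17 ± 0.05 in SAFB_KO (adjusted p 0.0033).

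Of 25 tested further hypoxia genes, 13 were higher and 6 lower in HOXA9_KO (27.6% and 29.9% of all genes) and 7 and 7 in SAFB_KO (20.2% and 15.3% of all genes). Of 24 in the MEIS1 experiment 4 were higher and 2 lower in MEIS1_KO (4.97% and 3.84% of all genes). With protein-coding scaling 8 were higher and 9 lower in HOXA9_KO (15.2% and 49.2% of all genes), and 5 and 9 in SAFB_KO (9.07% and 29.3% of all genes). EPAS1, which encodes the related factor HIF-2α, stood at 27.4 ± 1.75 CPM in HOXA9_KO and 12.9 ± 0.458 CPM in SAFB_KO, against 7.57 ± 0.568 CPM in NT, and rose by 1.86 ± 0.08 and 0.77 ± 0.08. In MEIS1_KO it stood at 25.0 ± 1.05 CPM, against 15.4 ± 2.21 CPM in NT_MEIS1ex, a rise of 0.69 ± 0.09 (adjusted p 5.9e-05). CXCR4, a chemokine receptor, rose by 1.27 ± 0.04 in HOXA9_KO, 0.61 ± 0.04 in SAFB_KO and 0.33 ± 0.05 in MEIS1_KO. CITED2, which competes with HIF1A for its coactivator, rose by 0.96 ± 0.03, 0.42 ± 0.03 and 0.20 ± 0.05 in these 3 knockouts, and HMOX1, the haem-degrading enzyme, by 3.71 ± 0.12 in HOXA9_KO. STC2, a secreted glycoprotein also raised by nutrient stress, stood at 1.74 ± 0.199 CPM in HOXA9_KO and 1.55 ± 0.494 CPM in SAFB_KO, against 13.4 ± 1.81 CPM in NT. Its log2 change was -2.93 ± 0.15 in HOXA9_KO, -3.15 ± 0.15 in SAFB_KO and -0.57 ± 0.06 in MEIS1_KO. DDIT4, an inhibitor of mTORC1, fell by 0.78 ± 0.08, 1.30 ± 0.08 and 0.58 ± 0.08 in the 3 knockouts, and the repressor BHLHE40 by 1.28 ± 0.06 in HOXA9_KO and 0.84 ± 0.06 in SAFB_KO.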

How the data were processed

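Total RNA of MOLM13 cells was sequenced as stranded, rRNA-depleted libraries of paired reads of 150 bases, per the labels' protocols. The authors deposited whole-number counts per gene for 17 libraries. Per the submitters' processing notes, HTSeq 1.99.2, STAR 2.7.10a, bedtools and Trim Galore were used with build hg38. The labels give neither the strand setting of the counting nor the annotation release. Lines that name no gene were left out of library sizes. Of reads assigned, ambiguous or outside genes, those outside genes made up 9.02% ± 0.325 in HOXA9_KO, 11.6% ± 1.05 in SAFB_KO and 17.04% ± 0.960 in NT (SD, n = 3 each). In the MEIS1 experiment they made up 8.25% ± 0.685 in MEIS1_KO and 7.30% ± 0.994 in NT_MEIS1ex (SD, n = 4 each). HOXA9_KO, SAFB_KO and NT libraries did not overlap in this share, and its part in the changes was not tested. Names and coordinates came from GENCODE 29, matched without version to 57937 of 58278 identifiers.

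edgeR 4.0.16 (R 4.3.3; filterByExpr with at least 10 counts and 15 in total; TMM; robust quasi-likelihood F test; Benjamini-Hochberg over all tested genes) was fitted to 9 libraries (HOXA9_KO, SAFB_KO and NT), to the 8 of the MEIS1 experiment, and all 17 for differences of effects. The SE is the log2 change divided by the root of F. Isoenzyme shares used counts per kb of merged exons and exact permutation tests (scipy 1.17.1). Alternatives were RLE factors, protein-coding scaling, DESeq2 1.42.0, no filter on low counts, a filter at 2 CPM on average, fits of both groups alone, a replicate block, and leaving out each library. The method was tested on simulated data. No library pair of a group agreed within sampling noise (chi-square per gene at least 2.94). Members and lists were chosen with earlier results of these data known, and the promoter motifs and the 20 CPM level with these values known. Given library by library were the hexokinases, PKM, HIF1A and the 8 largest called changes of each knockout; of further lists, at most 4 genes of the smallest p in a knockout. Some results of the further lists are not reported here.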

Additional observations from a re-analysis of the deposited data

Results flagged for a closer look

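Each group of 4 libraries was searched for a library far from the rest, in 70 groups, and 4 were found, where chance gives about 5%. All 4 lie in NT_MEIS1ex. HK2 lay at 206 CPM in replicate 1, below 216, 217 and 217 CPM in the others, and SLC16A3 lay at 282 CPM in replicate 1, above 252, 253 and 255 CPM. ALDOA lay at 2138 CPM in replicate 4, above 1990, 2004 and 2011 CPM. ANKRD37 lay at 1.47 CPM in replicate 2, below 1.82, 1.83 and 1.87 CPM. None of these genes was called in MEIS1_KO.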

How the results depend on the processing

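Protein-coding scaling changed the counts most: members called higher and lower came to 10 and 18 in HOXA9_KO against NT, 4 higher in SAFB_KO against NT, 8 lower in HOXA9_KO against SAFB_KO, 11 and 13 for the HOXA9_KO effect minus the MEIS1_KO effect, and 2 higher for the SAFB_KO effect minus the MEIS1_KO effect. It also turned the direction of the log2 change to -0.21 for SLC2A1, -0.13 for TPI1 and PGK1, -0.15 for SLC16A1, -0.16 for BNIP3L and -0.14 for P4HA1 in HOXA9_KO. In SAFB_KO it turned ALDOA to -0.0713, TPI1 to -0.11, GAPDH to -0.0477, PGK1 to -0.0415, PGAM1 to -0.0175, ENO1 to -0.13, SLC16A1 to -0.0133 and EGLN1 to -0.0103. In HOXA9_KO against SAFB_KO it turned HIF1A to -0.0063, TPI1 to -0.0113 and PGK1 to -0.0888. For the HOXA9_KO effect minus the MEIS1_KO effect it turned SLC2A1 to -0.0378, TPI1 to -0.0629, PGK1 to -0.14, and SLC2A3 and PFKP to -0.28. The cause was not tested. These are the turned directions of members called on at least one of the scalings. No other alternative turned the direction of a member that was called under it or on the first scaling, whereas some changes near 0 and called in neither did turn. A mean of at least 2 CPM left 6 members higher in SAFB_KO and 4 higher for its effect minus the MEIS1_KO effect. Members lower in MEIS1_KO numbered 6 with no filter, 5 with DESeq2 and 4 with the replicate block. Replicate numbers did not pair the libraries (correlations of deviations -0.012 to 0.02 and -0.145 to 0.089), and the block moved no other count of members by over 1.5 times. Leaving out single libraries gave 17 to 20 higher and 8 to 10 lower in HOXA9_KO against NT, 10 to 15 and 9 to 11 in SAFB_KO against NT, 1 to 3 and 1 to 6 in MEIS1_KO, 18 to 21 and 2 to 4 in HOXA9_KO against SAFB_KO, 16 to 20 and 4 to 5 for the HOXA9_KO effect minus the MEIS1_KO effect, and 6 to 12 and 5 to 7 for the SAFB_KO effect minus it; the 6 came without NT replicate 1 or MEIS1_KO replicate 1. Low counts limit ENO2, PFKM, ANKRD37, ADM and EGLN3, and HK3 in the MEIS1 experiment.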
